A study of Mus musculus with 24 samples.

Results

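Macrophages grown from the bone marrow of mice lacking Smad3 in myeloid cells were compared, without TGF-β1, with macrophages from mice whose Smad3 alleles were floxed and intact. The comparison used the 3 untreated libraries of each genotype, 6 of the 24 libraries in the series. Smad3fl/fl cells carried floxed Smad3 alleles and no stated Cre. MyS3KO cells carried the floxed alleles with a Cre recombinase placed in the lysozyme gene (LyzM-Cre), which cuts floxed DNA in macrophages and other myeloid cells and can leave some cells uncut. A Cre control without floxed alleles is not part of the labels, so Cre and the loss of Smad3 cannot be told apart. All mice were labelled C57BL/6 and were 2 to 3 months old. Tibial marrow cells were grown in medium holding interleukin-3 and CSF-1, a growth factor for macrophages, and kept without serum for about 16 hours, and polyadenylated RNA was read as pairs of 150 bases. The labels do not say whether the 3 libraries of a genotype came from separate animals or cultures, so every p-value measures only the spread between libraries.

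Smad3 is a cytoplasmic protein that is phosphorylated by activated TGF-β and activin receptors, joins Smad4, enters the nucleus and binds DNA together with other factors. Smad2 is its closest relative and shares these receptors. In macrophages, TGF-β signalling through Smad3 is known for restraining inflammatory genes and for its part in the uptake of dying cells. Cells in culture can see TGF-β that they make themselves, so a difference is possible without any added ligand. The comparison asks which transcripts differ between the genotypes at that baseline.

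The labels were checked first. Smad3 (ENSMUSG00000032402, chr9:63646767-63757994, GRCm38) was at 443, 460.0 and 369 CPM (reads per 1e6 of the scaled library total) in floxed libraries 1, 2 and 3. It was at 209, 181 and 161 CPM in knockout libraries 1, 2 and 3. The groups did not overlap, and Smad3 fell by 1.21 ± 0.14 on the log2 scale (standard error of the fit, adjusted p = 6.91e-06, edgeR quasi-likelihood test over 14261 genes). Whether the remaining reads came from uncut cells or from transcripts of the cut allele was not tested. Smad2, at 42.5 to 48.4 CPM in floxed and 40.6 to 43.7 CPM in knockout libraries, gave a log2 difference of -0.09 ± 0.12 that did not pass the test (adjusted p = 0.631). Genes near Smad3 were called about as often as others: of 160 tested genes within 10 Mb on either side, 11 were higher and 11 were lower, 13.75% against 17.7% of all tested genes.

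The 6 libraries held 18.4 to 23.3 M counted reads (M, 1e6). Markers of macrophages (10 listed genes) summed to 17582 to 29744 CPM in floxed and 19816 to 23460 CPM in knockout libraries, while 8 mast cell and basophil markers stayed at or below 0.45 CPM in sum and 6 erythroid markers at or below 0.33 CPM. The 8 lymphocyte markers summed to 5.75 to 12.8 CPM in floxed and 10.5 to 10.7 CPM in knockout libraries, mostly from Cd4, with Cd3e and Nkg7 at 0 in all 6 and neither of the 2 tested members called. The 8 dendritic cell markers summed to 39.2, 48.6 and 47.0 CPM in floxed and to 39.8, 24.9 and 21.5 CPM in knockout libraries; all 5 tested members had a negative log2 difference (median -0.61), 1 of them, Itgax, was called, and Cd209a was at 0. The 10 neutrophil markers summed to 290 to 438 CPM in floxed and 412 to 567 CPM in knockout libraries, nearly all of it Csf3r, which macrophages also transcribe; none of the 7 tested members was called, and all 7 had a positive log2 difference. In bulk RNA, fewer cells of a type and less RNA per cell cannot be told apart.

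Floxed library 3 stood between the genotypes. Its rank correlation with floxed libraries 1 and 2 was 0.969 and 0.968, no higher than its correlation with the 3 knockout libraries, 0.970 to 0.974, whereas floxed libraries 1 and 2 correlated at 0.984 with each other. On a scale where the knockout mean is 0% and the mean of floxed libraries 1 and 2 is 100%, floxed library 3 had a median position of 54.2% over the genes called higher and 75.8% over the genes called lower. Knockout library 1 also stood somewhat apart, with a median position of 69.6% and 83.7% when the floxed mean is 0% and the mean of knockout libraries 2 and 3 is 100%. Counts for most lists are therefore also given without floxed library 3, and with floxed library 3 as the sole control. In the latter fit the control group is 1 library, its spread is taken from the other groups, and the lone library is assumed to vary like them.

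Across all genes, 1194 were higher in the knockout libraries (8.37% of 14261 tested) and 1337 were lower (9.38%), at an adjusted p under 0.05 in edgeR. Of these, 532 rose and 504 fell by at least 2-fold. The single CPM values of the groups did not overlap for 917 of the higher and 1159 of the lower genes; among all tested genes, 10.8% lay wholly higher and 14.9% wholly lower. Leaving out each of the 6 libraries in turn left 436 higher and 544 lower genes called every time. Leaving out floxed library 3 alone gave 1909 and 1668. With floxed library 3 as the sole control they were 102 and 222, and with a fit of the 6 libraries alone, whose spread rests on fewer libraries, 108 and 148.

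**Figure D1:**
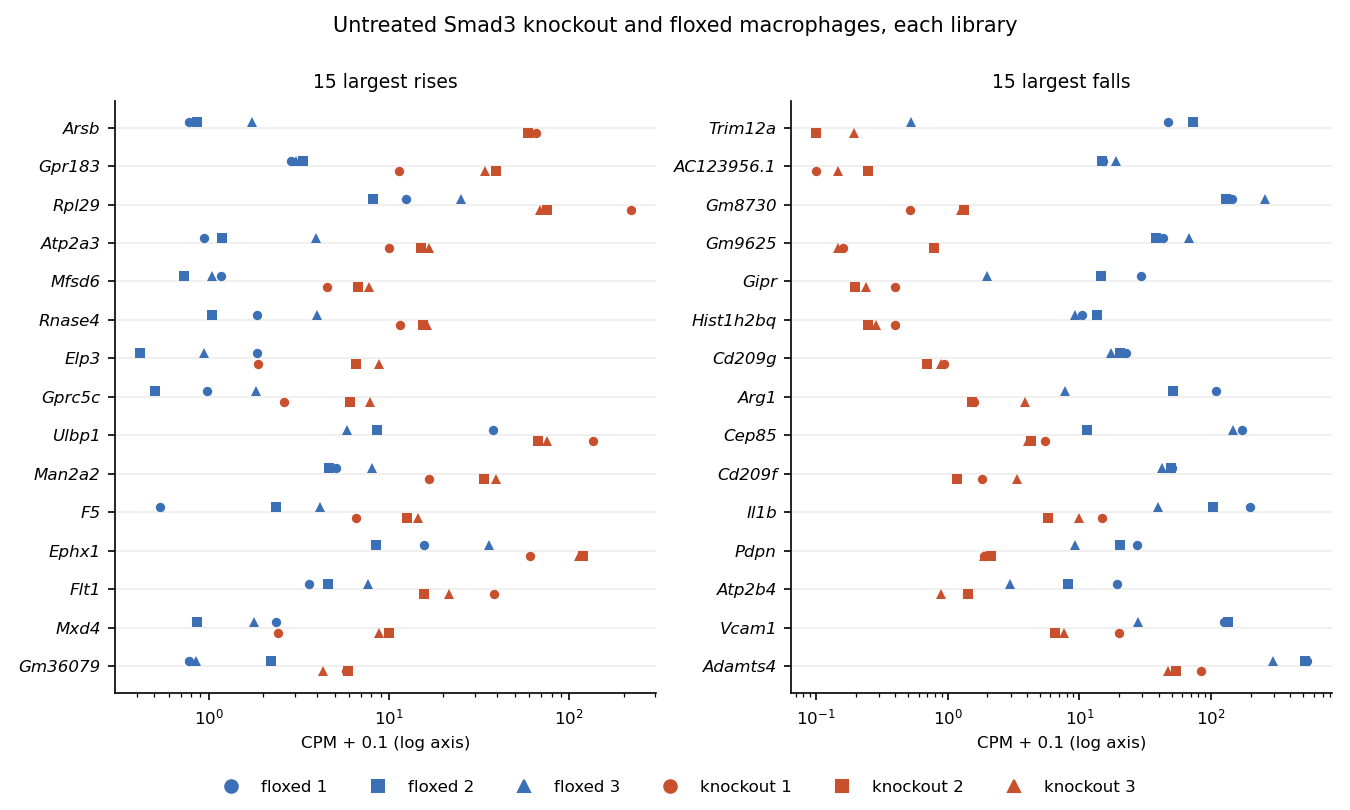
Level of the 15 genes with the largest rises (left) and the 15 with the largest falls (right) in each of the 6 untreated libraries, on a log axis of CPM plus 0.1. Colour marks the genotype and the symbol marks the library number. Groups that do not overlap were a condition for choosing the 30 genes. For Trim12a floxed library 3 (0.423 CPM) lies beside the knockout libraries.

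Among the 15 largest rises, Arsb stood first. Arsb encodes the lysosomal enzyme arylsulfatase B, which removes sulfate from dermatan and chondroitin sulfate. It was at 0.678, 0.766 and 1.64 CPM in floxed libraries 1, 2 and 3 and at 65.3, 59.1 and 59.9 CPM in knockout libraries 1, 2 and 3. The groups lay far apart with little spread inside the knockout group, and the log2 difference was 5.91 ± 0.33 (adjusted p = 1.03e-10). Macrophages of the Smad2 line, floxed or knockout, held 4.41 ± 0.201 and 5.34 ± 1.4 CPM (SD, n = 3 each), so the knockout libraries of the Smad3 line were above, and its floxed libraries below, both Smad2 groups.

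Gpr183, the receptor for oxysterols that guides immune cell migration, was at 2.75, 3.24 and 2.96 CPM in floxed and at 11.3, 39.2 and 34.2 CPM in knockout libraries (log2 difference 3.24 ± 0.38, adjusted p = 1.03e-05). Knockout library 1 was well under the rest of its group, yet above every floxed library. Man2a2, a Golgi mannosidase that trims protein-bound sugars, was at 4.99, 4.55 and 7.99 CPM in floxed and 16.6, 33.5 and 38.9 CPM in knockout libraries, a log2 difference of 2.35 ± 0.30 (adjusted p = 2.28e-05). Further genes in this group were Atp2a3 (a calcium pump of the endoplasmic reticulum, 2.86), Rnase4 (a secreted ribonuclease, 2.71), Ephx1 (microsomal epoxide hydrolase, 2.29), Flt1 (a receptor for VEGF, 2.27), F5 (coagulation factor V, 2.32) and Ulbp1 (a ligand of the NKG2D receptor, 2.41), each given as a log2 difference. The others were Mfsd6 (2.81), Elp3 (2.52), Gprc5c (2.44), Mxd4 (2.15) and Gm36079 (2.14), the last 99.83% identical to Gm21188 over 573 bases, so its reads could belong to either. Rpl29 (log2 difference 3.01) is likewise uncertain, since 107 other genes carry close copies of its transcript. Rpl29 averaged 15.1 CPM in floxed and 122 CPM in knockout libraries, and 293 CPM in each untreated Smad2 group.

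The largest falls included a C-type lectin pair, secreted and surface proteins of activated macrophages, and a set of processed gene copies. Cd209g was at 22.5, 20.3 and 17.3 CPM in floxed and at 0.835, 0.592 and 0.795 CPM in knockout libraries, a fall of 4.75 ± 0.39 on the log2 scale (adjusted p = 4.56e-08). Its neighbour Cd209f (chr8:4102787-4105835) fell by 4.54 ± 0.54 (adjusted p = 1.38e-05), from 50.4, 49.1 and 42.4 CPM to 1.73, 1.09 and 3.23 CPM. For both genes floxed library 3 sided with floxed libraries 1 and 2. Both encode members of the DC-SIGN family of sugar-binding receptors. In the untreated Smad2 line Cd209g was at 1.20 ± 0.663 CPM in floxed and 0.555 ± 0.189 CPM in knockout libraries (SD, n = 3 each). Cd209f was at 4.15 ± 2.82 and 1.17 ± 1.07 CPM there. Both Smad2 groups were thus nearer the knockout than the floxed libraries of the Smad3 line.

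Adamts4, a protease that cleaves the proteoglycan aggrecan, was at 538, 512 and 294 CPM in floxed and at 83.6, 53.9 and 47.0 CPM in knockout libraries, a fall of 2.87 ± 0.29 (adjusted p = 2.24e-06). It kept its call against floxed library 3 alone, with a log2 difference of -2.25 (adjusted p = 0.000969). Arg1, the arginase of alternatively activated macrophages, was at 108, 51.6 and 7.66 CPM in floxed and at 1.49, 1.43 and 3.79 CPM in knockout libraries, a fall of 4.62 ± 0.73 (adjusted p = 0.000207). The 3 floxed libraries spanned a wide range for Arg1, and against floxed library 3 alone its difference was -1.74 with an adjusted p of 0.188. Vcam1, an adhesion molecule for integrin-bearing cells, was at 125, 133 and 27.7 CPM against 20.0, 6.41 and 7.49 CPM (log2 difference -3.09 ± 0.55, adjusted p = 0.00061), and -1.30 with an adjusted p of 0.262 against floxed library 3 alone. The remaining falls were Gipr, the receptor for the gut hormone GIP (-6.42), Cep85, a centrosomal protein (-4.61), Pdpn, podoplanin (-3.33), Atp2b4, a calcium pump of the plasma membrane (-3.13), and Il1b and Trim12a, which are taken up with their families. Of the 30 genes, 16 were still called against floxed library 3 alone. In a fit of the 6 libraries alone 29 were tested, all but Trim12a, and 20 were called.

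A histone gene and 3 copies of the Rplp0 gene were read in one genotype and nearly absent from the other. Rplp0 encodes the acidic stalk protein P0 of the large ribosomal subunit. Gm8730 (chr8:102864845-102865798) was at 145, 129.8 and 255 CPM in floxed and at 0.417, 1.23 and 1.17 CPM in knockout libraries, a log2 difference of -7.51 ± 0.38 (adjusted p = 1.73e-11). Gm9625 (chr13:67810246-67811200) was at 42.8, 37.8 and 68.0 CPM and then at 0.0596, 0.691 and 0.0468 CPM, a log2 difference of -7.47 ± 0.55. AC123956.1, which the deposited table describes as an Rplp0 pseudogene, fell by 7.77 ± 0.50. These 3 genes were thus near 0 in every knockout library, and floxed library 3 held the most.

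The copies are nearly the same sequence as Rplp0 itself. Gm8730 was 98.74% identical to the Rplp0 transcript over 954 bases and Gm9625 97.38% over 955 bases. A stretch of 90 bases, positions 214 to 303 of the Rplp0 coding sequence, is shown (GRCm38 transcripts, 5′ to 3′). It was picked as the aligned 90-base stretch of the coding sequence with the most differing positions, so it is not a typical one. A read of it can be told apart only at the capitals, which mark each position where at least 1 of the 3 differs.

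Rplp0: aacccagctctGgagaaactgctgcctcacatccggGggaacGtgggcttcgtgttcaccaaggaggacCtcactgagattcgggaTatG

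Gm8730: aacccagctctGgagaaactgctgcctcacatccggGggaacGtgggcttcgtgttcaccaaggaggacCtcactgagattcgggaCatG

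Gm9625: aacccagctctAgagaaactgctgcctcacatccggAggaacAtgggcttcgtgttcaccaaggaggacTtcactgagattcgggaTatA

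Gm8730 differs from Rplp0 at 1 and Gm9625 at 5 of these positions. Rplp0 itself moved the opposite way: it was at 242, 204 and 459 CPM in floxed and at 783, 996 and 955 CPM in knockout libraries (log2 difference 1.60 ± 0.24, adjusted p = 0.000134). The 3 copies together held 203, 182 and 342 CPM in floxed against 0.477, 2.07 and 1.26 CPM in knockout libraries. Rplp0 and its 3 copies together came to 445, 387 and 801 CPM against 784, 998 and 956 CPM, so that in the sum floxed library 3 lay just above knockout library 1. In the Smad2 line the copies held 1.40 to 2.17 CPM in floxed libraries beside an Rplp0 level of 888 to 1220 CPM. Whether the copies were transcribed in the floxed libraries or drew reads of Rplp0 was not tested.

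Hist1h2bq, a histone H2B gene, was at 10.4, 13.4 and 9.11 CPM in floxed and at 0.298, 0.148 and 0.187 CPM in knockout libraries. It is identical over 1254 bases to its neighbour Hist1h2br, so reads of the pair cannot be told apart. Together the pair held 9.39 to 13.9 CPM in floxed and 0.148 to 0.596 CPM in knockout libraries. In the Smad2 line Hist1h2bq was at 5.73 to 18.9 CPM in floxed and 7.75 to 10.3 CPM in knockout libraries, the level of the floxed Smad3 libraries.

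**Figure D2:**
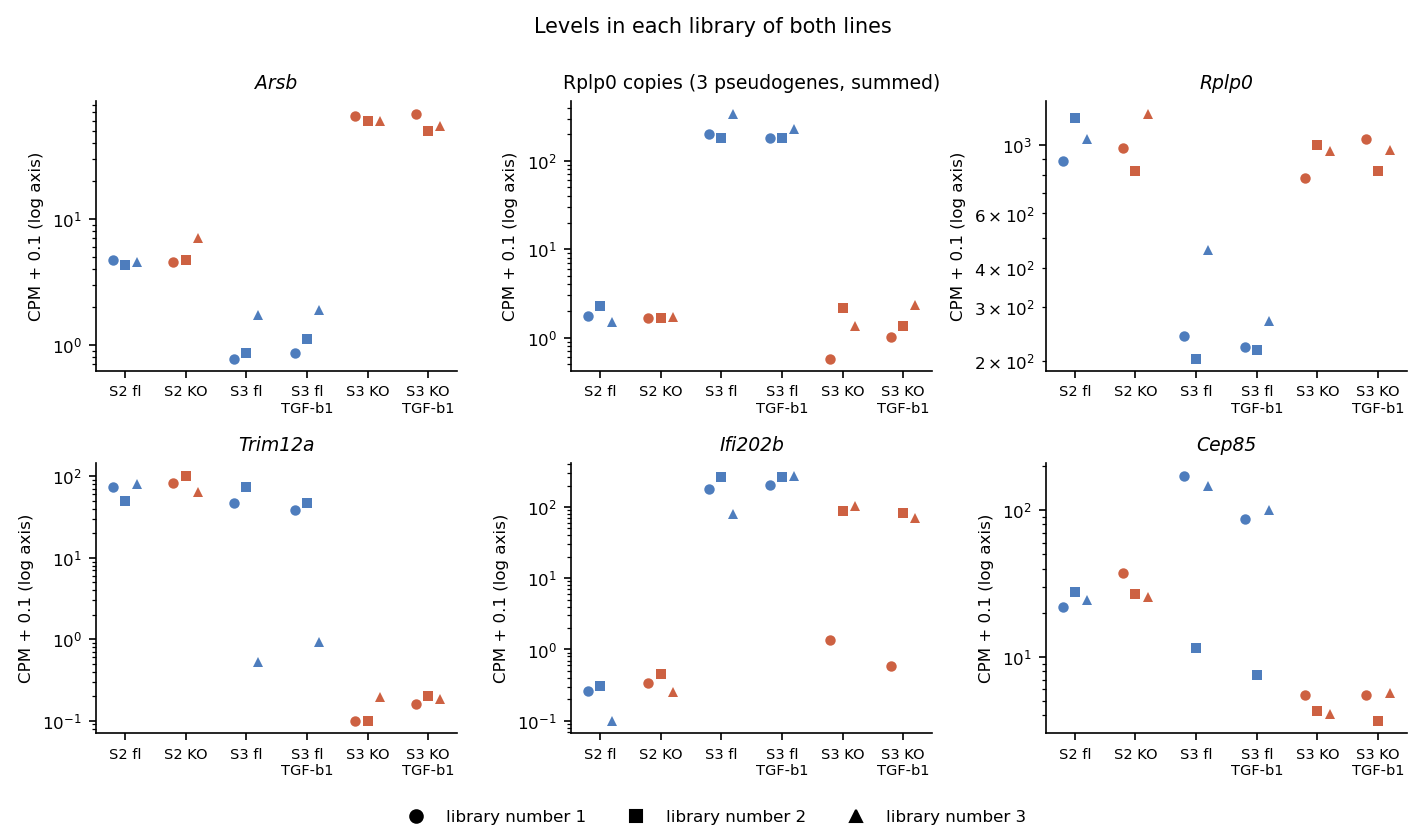
CPM plus 0.1 on a log axis in each library of the untreated Smad2 line (S2) and of the Smad3 line (S3) without and with TGF-β1; blue is floxed, orange is knockout, and symbols are library numbers. Arsb and the Rplp0 copies part the genotypes of the Smad3 line cleanly, while Trim12a, Ifi202b and Cep85 each have 1 library that departs from its group, under the same number with and without TGF-β1.

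Some genes separated single libraries from their own group. Trim12a, of the Trim5 family of retrovirus restriction factors (chr7:104299894-104315466), was at 46.6 and 73.1 CPM in floxed libraries 1 and 2 but at 0.423 CPM in floxed library 3, and at 0.0936 CPM or less in the knockout libraries. Its call therefore rests on floxed libraries 1 and 2, and against floxed library 3 alone the adjusted p was 0.557. Cep85 was at 11.4 CPM in floxed library 2 against 172 and 146 CPM in floxed libraries 1 and 3. The library with the same number under TGF-β1 departed in the same way for each: Trim12a was at 0.839 CPM in treated floxed library 3, and Cep85 at 7.48 CPM in treated floxed library 2. Of 19 tested Ifi200 and Trim5 cluster genes, which sense or restrict foreign nucleic acids, 2 were higher (Mndal and Aim2) and 4 lower (Trim12a, Trim5, Trim30b and Trim34a). With floxed library 3 as the sole control none was called, and Trim30b and Trim5 then had log2 differences of 1.30 and 0.12, against -2.40 and -7.05 with all 3 floxed libraries. Ifi202b is known as a gene whose transcription differs between inbred mouse strains. It was at 178, 261 and 80.7 CPM in floxed and at 1.25, 88.0 and 104 CPM in knockout libraries 1, 2 and 3, and was not called. In the untreated Smad2 line it was at 0.360 CPM or less in every library. The part of genetic background in any of these values was not tested, and genotype and the strain makeup of the libraries cannot be told apart.

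The named lists that follow, 37 of gene functions, were read as counts of called members beside the 8.37% and 9.38% called among all genes, and as medians beside the median log2 difference of all tested genes, -0.03. In a fit of the 6 libraries alone the counts shrank with the count over all genes: no lysosomal, Fc receptor or mitochondrial gene was called there, and 3 ribosomal protein genes were higher, 4 integrin and adhesion genes were lower, and every other list had at most 1 higher and 2 lower genes.

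**Figure D3:**
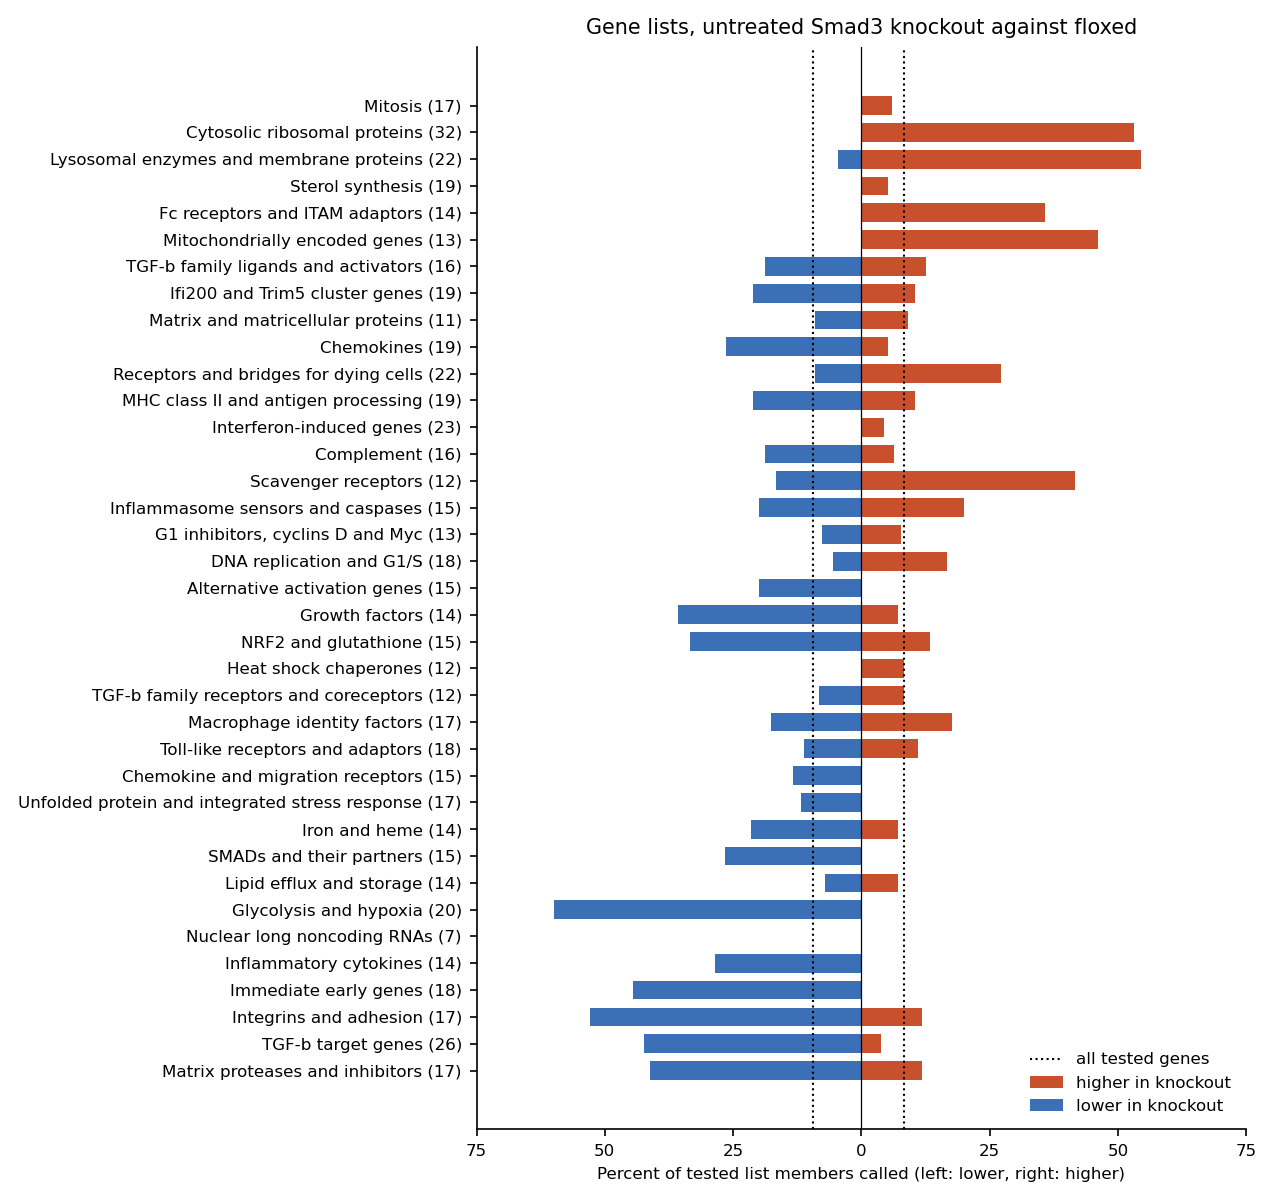
Share of each list's tested members called lower (blue, left) and higher (orange, right) in untreated Smad3 knockout libraries, with the number tested in brackets and lists ordered by their median log2 difference. Dotted lines mark the shares among all tested genes; the longest bars to the left are glycolysis and hypoxia (12 of 20) and to the right lysosomal genes (12 of 22).

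Of the TGF-β pathway lists, the targets and the SMADs with their partners, Smad3 itself among them, differed mostly downward. Receptors and ligands split in both directions. Of 26 tested genes known as TGF-β targets, 11 were lower and 1, P2ry12, was higher, with a median of -0.74. Id3, which encodes an inhibitor of helix-loop-helix factors, was at 9.22, 6.40 and 2.44 CPM in floxed and at 2.38, 1.87 and 1.03 CPM in knockout libraries, a fall of 1.79 ± 0.36 (adjusted p = 0.00158). Pdgfb, a growth factor for mesenchymal cells, was at 25.7, 24.1 and 15.5 CPM against 5.07, 8.24 and 8.38 CPM, a fall of 1.59 ± 0.31 (adjusted p = 0.0013). The groups did not overlap for either gene, although for Id3 floxed library 3 lay just above knockout library 1. Adam19, a membrane protease, fell by 1.93 ± 0.47 and Spsb1, an adaptor of a ubiquitin ligase, by 1.89 ± 0.45. The count was 1 higher and 12 lower without floxed library 3; against floxed library 3 alone it was 0 and 1.

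Of 15 tested SMADs and partners, 4 were lower and none was higher (median -0.19): Smad3, Smad5, and the nuclear repressors Skil and Tgif1. Skil was at 281, 385 and 193 CPM in floxed and at 239, 148 and 139 CPM in knockout libraries, overlapping groups with a fall of 0.71 ± 0.23 (adjusted p = 0.034). Among 12 receptors and coreceptors, Eng (endoglin) was higher by 0.90 ± 0.22 and Acvr2a, an activin receptor, lower by 1.17 ± 0.34. The signalling receptors Tgfbr1 and Tgfbr2 gave log2 differences of -0.35 ± 0.28 and -0.11 ± 0.14, neither of which passed the test. When floxed library 2 or knockout library 2 was left out, the targeted gene Smad3 was the only 1 of the SMADs and partners still called. With floxed library 3 as the sole control, the log2 difference was -0.996 for Smad3. It was -0.13 for Skil, -0.46 for Tgif1 and -0.22 for Smad5 in that fit, and 0.38 for Eng and -0.02 for Acvr2a.

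Among 16 tested ligands and activators, 2 were higher and 3 lower (median 0.37). Thbs1, thrombospondin 1, which can release TGF-β from its latent form, was at 1849.6, 1609 and 519 CPM in floxed and at 509.9, 199 and 180.0 CPM in knockout libraries, a fall of 2.16 ± 0.44 (adjusted p = 0.00189). Floxed library 3 and knockout library 1 nearly met. Bmp1, a procollagen protease, fell by 1.38 ± 0.21, from 26.8, 33.3 and 29.8 CPM to 14.6, 8.24 and 11.7 CPM. Ltbp3, which tethers latent TGF-β to the matrix, was at 3.43, 6.58 and 18.4 CPM in floxed and at 27.3, 34.7 and 39.3 CPM in knockout libraries (log2 difference 1.84 ± 0.39, adjusted p = 0.00255). Itgav was lower and Furin higher, and Tgfb1 itself gave 0.39 ± 0.23 (adjusted p = 0.247). With floxed library 3 as the sole control 1 member of this list was lower.

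Inflammatory cytokines were lower in the knockout libraries where they were called, while chemokines and inflammasome genes were called in both directions. Of 14 tested inflammatory cytokines, 4 were lower and none was higher (median -0.56): Il1b, Il1a, Csf3 and Osm. Il1b, which encodes the precursor of interleukin-1β, was at 198, 103 and 39.5 CPM in floxed and at 14.7, 5.67 and 9.73 CPM in knockout libraries, a fall of 3.50 ± 0.53 (adjusted p = 0.000141). The lowest floxed library was still above the highest knockout library, and against floxed library 3 alone the difference was -1.97 (adjusted p = 0.0577). Csf3, the granulocyte growth factor G-CSF, was at 4.11, 1.53 and 0.329 CPM in floxed libraries and had no read in any knockout library. Tnf gave -0.68 ± 0.34 (adjusted p = 0.174) and Il10 -0.45 ± 0.38 (adjusted p = 0.448), with overlapping groups. Il6, at 15.2, 12.7 and 1.13 CPM against 5.90, 0.740 and 1.17 CPM, missed the threshold (adjusted p = 0.0616). The number of lower cytokines was 5 without floxed library 3, and against floxed library 3 alone none was.

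Of 19 tested chemokines, 5 were lower and 1, Cxcl14, was higher. The list's median was 0.36, so the members that were called did not move with the list as a whole. The called falls included the neutrophil attractants Cxcl1, Cxcl2 and Cxcl3, with Ccl22 and Cxcl16. Cxcl2 was at 413, 410.4 and 171 CPM in floxed and at 83.9, 50.6 and 45.8 CPM in knockout libraries, a fall of 2.47 ± 0.37 (adjusted p = 0.000117). Cxcl1 was at 455, 338 and 123 CPM against 88.5, 46.1 and 32.8 CPM, a fall of 2.45 ± 0.44 (adjusted p = 0.000664). Cxcl3, lower in level, was at 34.5, 9.01 and 1.97 CPM against 2.27, 2.07 and 0.936 CPM, groups that overlapped. Ccl2 and Ccl3, attractants of monocytes, did not pass the test (log2 differences 0.62 ± 0.52 and -1.11 ± 0.40). The list gave 3 higher and 5 lower genes without floxed library 3, and none against floxed library 3 alone, where Cxcl2 was at -1.50 (adjusted p = 0.0574), Cxcl1 at -1.13 (adjusted p = 0.233) and Cxcl3 at -0.17 (adjusted p = 0.946).

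The 3 neutrophil attractants lie in one cluster on chromosome 5, and their promoters, 250 bases before the RefSeq start site (GRCm38.p6, plus strand), are shown because they share one run of letters. Capitals mark matches to the NF-κB motif, which was searched on both strands together with AP-1 (TGANTCA), the E-box (CACGTG) and the SMAD palindrome (GTCTAGAC), and any E-box.

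Cxcl1 (chr5:90890995-90891244): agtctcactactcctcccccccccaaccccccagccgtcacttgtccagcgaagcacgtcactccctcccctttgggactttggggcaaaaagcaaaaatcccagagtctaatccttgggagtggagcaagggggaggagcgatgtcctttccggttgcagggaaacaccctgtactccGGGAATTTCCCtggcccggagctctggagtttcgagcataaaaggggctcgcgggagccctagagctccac

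Cxcl2 (chr5:90903649-90903898): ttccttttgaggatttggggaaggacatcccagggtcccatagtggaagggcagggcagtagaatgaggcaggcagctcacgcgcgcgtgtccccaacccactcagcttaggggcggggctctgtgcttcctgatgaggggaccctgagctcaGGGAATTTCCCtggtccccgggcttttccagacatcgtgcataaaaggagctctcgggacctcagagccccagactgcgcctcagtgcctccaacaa

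Cxcl3 (chr5:90785851-90786100): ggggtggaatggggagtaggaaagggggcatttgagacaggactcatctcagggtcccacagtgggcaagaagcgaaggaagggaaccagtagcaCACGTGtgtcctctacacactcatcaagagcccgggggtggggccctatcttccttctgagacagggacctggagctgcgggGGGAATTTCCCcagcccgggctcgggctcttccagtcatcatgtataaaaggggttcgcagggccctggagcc

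In each promoter the capitals hold 2 overlapping NF-κB matches, the first at -71, -97 and -73 from the start site in Cxcl1, Cxcl2 and Cxcl3. The motif occurred in 8.23% of the windows of 27025 genes and in 5 of the 13 tested chemokines with a window (38.5%). A match describes the letters only. The SMAD palindrome, present in 0.2% of all windows, was in none of the 3. The window of Il1b held no NF-κB match. Among members called lower with a window, the motif was in 3 of 4 chemokines and 0 of 2 inflammatory cytokines.

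Of 15 inflammasome sensors and caspases, 3 were higher and 3 lower. Nlrp3, the sensor whose inflammasome matures interleukin-1β, was at 342, 469.5 and 312 CPM in floxed and at 172, 91.2 and 91.5 CPM in knockout libraries, a fall of 1.67 ± 0.21 (adjusted p = 2.28e-05). Naip6, a sensor of bacterial flagellin, moved the opposite way, from 24.7, 25.6 and 22.2 CPM to 53.2, 46.9 and 54.5 CPM (log2 difference 1.09 ± 0.16, adjusted p = 0.000103). The groups were separate for both genes. Nlrp10 and Aim2 were also higher, and Nlrc4 was lower. Nlrp1a was called lower although only floxed library 3, at 12.9 CPM, held any reads among the 6 libraries. The count was 4 higher and 3 lower without floxed library 3 and 1 and 3 against it alone.

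Immediate early genes, which respond within minutes to stimulation, were lower in 8 of 18 cases and higher in none (median -0.60). Nr4a1, a nuclear receptor, was at 7.90, 4.91 and 3.76 CPM against 1.91, 1.04 and 0.889 CPM, a fall of 2.13 ± 0.29 (adjusted p = 5.1e-05). Ier3, at 207, 178 and 112 CPM against 73.4, 48.2 and 42.5 CPM, fell by 1.60 ± 0.25 (adjusted p = 0.00018). Fosl1 and Fosl2, AP-1 subunits, fell by 3.19 ± 0.81 and 1.29 ± 0.27. Of these genes 1 was higher and 8 were lower without floxed library 3, and against floxed library 3 alone 1 was lower.

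Proteases that remodel the matrix and adhesion molecules were lower in larger shares than all genes. Of 17 matrix proteases and inhibitors, 7 were lower and 2 higher (median -0.80). Mmp13, a collagenase, was at 105, 110.3 and 25.3 CPM in floxed and at 31.8, 10.2 and 11.4 CPM in knockout libraries, a fall of 2.18 ± 0.49 (adjusted p = 0.00405), with floxed library 3 inside the knockout range. Plaur, the urokinase receptor, fell by 1.97 ± 0.32, while Plau, its ligand, and Timp2, a protease inhibitor, were higher by 0.95 ± 0.24 and 1.40 ± 0.28. Of 17 integrins and adhesion genes, 9 were lower and 2 higher (median -0.62). Cd44, the hyaluronan receptor, was at 223, 197 and 142 CPM against 89.8, 98.1 and 90.4 CPM, a fall of 1.02 ± 0.17 (adjusted p = 0.000384). Itgax, the CD11c integrin, fell by 2.12 ± 0.45, from 2.19, 2.21 and 2.25 CPM to 0.298, 0.493 and 0.702 CPM. Among 11 matrix proteins the only called rise was Spp1, osteopontin, at 211, 298 and 198 CPM against 632, 711 and 818 CPM (log2 difference 1.61 ± 0.27, adjusted p = 0.000384). Without floxed library 3, the protease count was 2 higher and 11 lower and the integrin count 3 and 8; against floxed library 3 alone 1 protease and 2 integrin genes were lower.

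**Figure D4:**
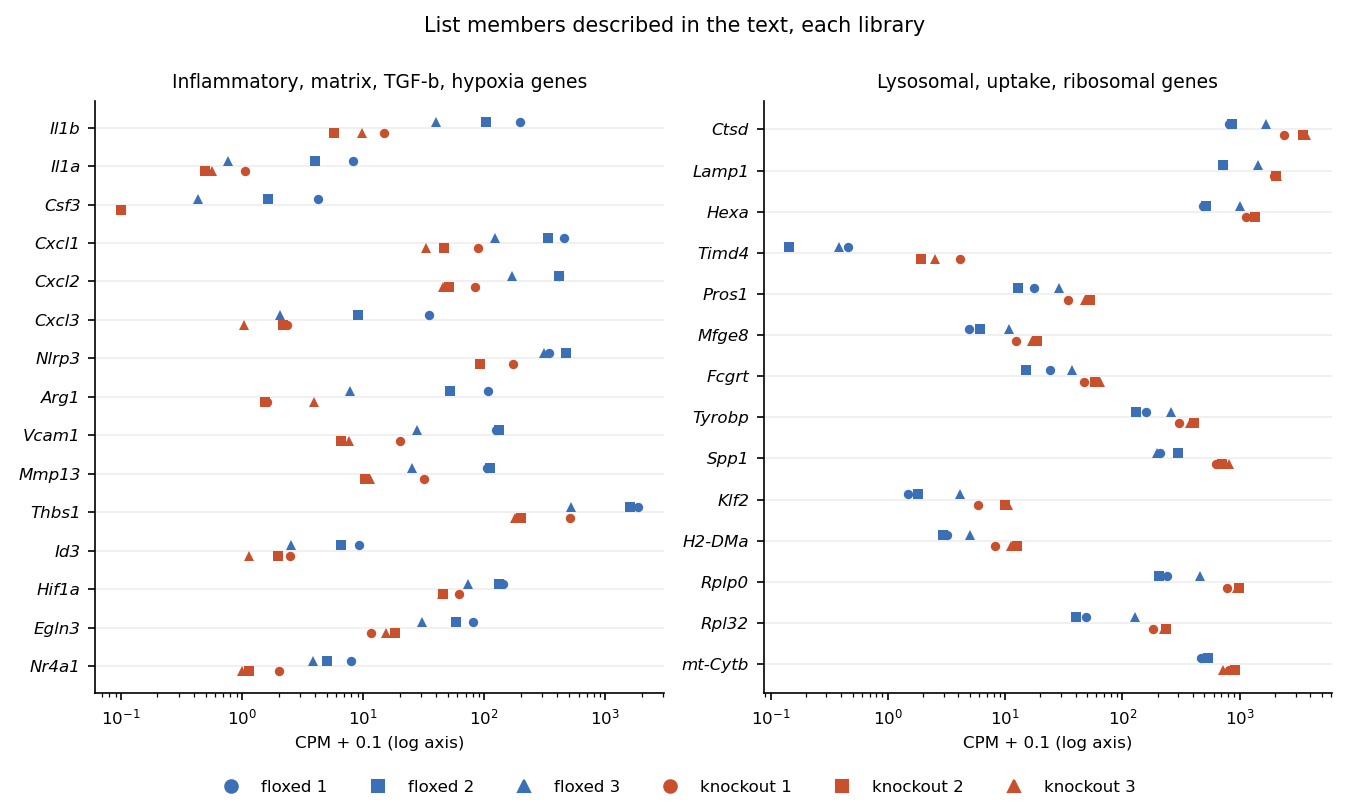
CPM plus 0.1 on a log axis for list members described in the text, in each of the 6 untreated libraries; colour is the genotype and symbol the library number. On the left the floxed libraries lie to the right of the knockout libraries (Il1b 39.5 to 198 CPM against 5.67 to 14.7 CPM), except that floxed library 3 falls within the knockout range for Il1a, Cxcl3 and Mmp13; on the right the order is turned (Ctsd 814 to 1672 CPM in floxed, 2380.1 to 3697 CPM in knockout libraries).

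Glycolysis and hypoxia genes gave the most one-sided count toward lower levels. All 20 tested members had a negative log2 difference (median -0.43), and 12 of them passed the test. Hif1a, the oxygen-regulated transcription factor, was at 143, 131 and 73.7 CPM in floxed and at 61.4, 45.6 and 44.7 CPM in knockout libraries, a fall of 1.20 ± 0.23 (adjusted p = 0.00102). Egln3, a prolyl hydroxylase that acts on HIF proteins, was at 81.0, 58.5 and 30.7 CPM against 11.4, 18.2 and 15.4 CPM, a fall of 1.92 ± 0.35 (adjusted p = 0.000671). Vegfa and Bnip3, genes that HIF proteins activate, fell by 1.00 ± 0.20 and 0.99 ± 0.19. The groups did not overlap for any of these 4, and floxed library 3 was the lowest floxed library each time. Ldha, lactate dehydrogenase, was among those not called (-0.13 ± 0.15). Without floxed library 3, 9 were lower, and against floxed library 3 alone 1 was.

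Lysosomal genes were called higher in a larger share than all genes. Of 22 tested lysosomal enzymes and membrane proteins, 12 were higher and 1, the cholesterol transporter Npc1, was lower (median 0.55). Ctsd, the protease cathepsin D, was at 814, 869.8 and 1672 CPM in floxed and at 2380.1, 3477 and 3697 CPM in knockout libraries (log2 difference 1.51 ± 0.24, adjusted p = 0.000188). Lamp1, a membrane glycoprotein of lysosomes, was at 727, 719 and 1449 CPM against 1959, 2039 and 2074 CPM (1.07 ± 0.19, adjusted p = 0.000579). Floxed library 3 lay between the others of its group and the knockout libraries for both. Hexa, which encodes a lysosomal hexosaminidase subunit, rose by 0.94 ± 0.21 on the log2 scale. The whole list summed to 28552, 29640 and 45185 CPM in floxed and to 50341, 53048 and 52964 CPM in knockout libraries. Arsb is not in this count, as it was not listed. Leaving out floxed library 3 gave 17 higher and 2 lower, and against floxed library 3 alone 0 and 0.

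Promoters of Ctsd and Lamp1 are shown because the E-box CACGTG, the core of the site bound by the lysosomal regulators TFEB and TFE3, occurs in them more than once. Capitals mark each match in the 250 bases before the RefSeq start site (GRCm38.p6, strand of the gene).

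Ctsd (chr7:142387828-142388077, minus strand): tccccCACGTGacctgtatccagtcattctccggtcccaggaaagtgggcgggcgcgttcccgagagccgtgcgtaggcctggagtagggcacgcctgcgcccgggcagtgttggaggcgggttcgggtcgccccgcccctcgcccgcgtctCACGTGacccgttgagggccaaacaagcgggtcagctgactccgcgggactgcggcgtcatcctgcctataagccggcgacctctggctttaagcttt

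Lamp1 (chr8:13158911-13159160, plus strand): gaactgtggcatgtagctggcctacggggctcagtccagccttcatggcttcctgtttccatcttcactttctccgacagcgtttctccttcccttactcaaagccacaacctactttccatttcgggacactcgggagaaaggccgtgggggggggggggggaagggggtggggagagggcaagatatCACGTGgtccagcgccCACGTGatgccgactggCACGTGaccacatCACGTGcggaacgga

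Ctsd has matches at -245 and -98 and Lamp1 at -61, -45, -28 and -15. The motif was in 6.86% of the windows of all 27025 genes and in 5 of the 16 tested lysosomal genes with a window (31.2%). Among lysosomal members called higher with a window it was in 3 of 9 (33.3%), much the same share. Hexa has none in its window.

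Receptors and bridging proteins that bind dying cells, a function for which macrophage Smad3 is studied, were higher in 6 of 22 and lower in 2 of 22 tested cases (median 0.33). Timd4, the receptor TIM-4 for phosphatidylserine on dying cells, was at 0.359, 0.0450 and 0.282 CPM in floxed and at 3.99, 1.83 and 2.43 CPM in knockout libraries (log2 difference 3.53 ± 0.72, adjusted p = 0.00188). Pros1, which bridges dying cells to the receptor MerTK, was at 17.4, 12.8 and 28.5 CPM against 34.1, 52.5 and 47.9 CPM (1.20 ± 0.23, adjusted p = 0.00123). Mfge8, a bridge to integrins, was at 4.87, 6.04 and 10.8 CPM against 12.2, 18.6 and 16.8 CPM (1.14 ± 0.29, adjusted p = 0.00828). All 3 had separate groups. Gas6, Mertk and Stab1 were the other rises, and Itgav and Elmo1 the falls. Without floxed library 3 the count was 11 higher and 3 lower, and against floxed library 3 alone it was 0 and 1.

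Of 14 Fc receptors and ITAM adaptors, which mediate uptake of antibody-coated particles, 5 were higher and none was lower (median 0.51). Fcgrt, the neonatal Fc receptor, was at 24.3, 15.1 and 37.1 CPM in floxed and at 47.2, 58.7 and 64.0 CPM in knockout libraries (1.15 ± 0.22, adjusted p = 0.00124). Tyrobp, the adaptor DAP12, was at 159, 132 and 258 CPM against 303, 407 and 380.2 CPM (0.99 ± 0.20, adjusted p = 0.00142). Neither gene's groups overlapped. Fcgr2b, Fcgr3 and Trem2 were the other rises. Of 12 scavenger receptors, 5 were higher and 2, Marco and Cd5l, were lower. Leaving out floxed library 3 gave 8 higher Fc receptor and adaptor genes, and against floxed library 3 alone no member of either list was called.

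Antigen presentation split in both directions. Of 19 genes of MHC class II and antigen processing, 4 were lower and 2 higher (median 0.30). The lower ones were the class II chains H2-Ab1, H2-Aa and H2-Eb1 and their chaperone Cd74. H2-Ab1 was at 29.5, 13.4 and 9.16 CPM in floxed and at 4.35, 6.02 and 4.68 CPM in knockout libraries, a fall of 1.79 ± 0.45 (adjusted p = 0.00797). H2-DMa, which helps load peptides onto class II molecules, went from 3.11, 2.84 and 4.93 CPM to 8.17, 12.5 and 11.2 CPM (1.55 ± 0.22, adjusted p = 8.52e-05), and its partner H2-DMb1 rose by 0.82 ± 0.24. The dendritic cell markers, all negative as given above, moved with the class II chains, and their part in this was not tested. The count was 7 higher and 4 lower without floxed library 3, and against floxed library 3 alone no member was called.

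Ribosomal protein and mitochondrial transcripts were higher in the knockout libraries. All 32 cytosolic ribosomal protein genes had a positive difference and 17 were called (median 0.62); beside Rplp0, Rpl32 rose from 49.0, 40.2 and 128 CPM to 184, 234 and 228 CPM (1.57 ± 0.31, adjusted p = 0.00136). Without floxed library 3, 31 were called, and against it alone 2. Of 13 mitochondrially encoded genes, 6 were higher and none was lower (median 0.50). mt-Cytb, a subunit of respiratory complex III, was at 468, 534 and 529.9 CPM in floxed and at 805, 906 and 726 CPM in knockout libraries (0.67 ± 0.17, adjusted p = 0.00867). Floxed library 3, at 529.9 CPM, lay beside floxed library 2, yet against floxed library 3 alone no mitochondrial gene was called (mt-Cytb 0.63, adjusted p = 0.21).

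Oxidant defence and iron handling gave mixed counts. Of 15 NRF2 and glutathione genes, 5 were lower and 2, Gpx4 and Gstm1, were higher. Gsr, glutathione reductase, was at 199, 129 and 117 CPM in floxed and at 41.5, 49.8 and 59.3 CPM in knockout libraries, a fall of 1.56 ± 0.21 (adjusted p = 4.5e-05). Txnrd1, thioredoxin reductase, fell by 1.25 ± 0.16, from 622, 599.8 and 444 CPM to 283, 205 and 213 CPM (adjusted p = 2.08e-05). Both pairs of groups were far apart, floxed library 3 included. Of 14 iron and heme genes, 3 were lower and 1, Hfe, was higher. Spic, the transcription factor of iron-recycling macrophages, was at 27.3, 21.7 and 9.54 CPM against 5.54, 2.86 and 3.04 CPM, a fall of 2.36 ± 0.36 (adjusted p = 0.000168), and the iron exporter Slc40a1 fell by 0.86 ± 0.28. Against floxed library 3 alone 2 NRF2 and glutathione genes were lower and no iron and heme gene was called, with Slc40a1 at 0.12.

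Growth factors were lower in 5 of 14 cases (Pdgfb, Pdgfa, Hbegf, Osm and Vegfa) and higher in 1, Hgf, which went from 2.99, 4.05 and 3.19 CPM to 7.09, 8.04 and 7.35 CPM (1.13 ± 0.33, adjusted p = 0.0215). Among 13 genes of G1 control, Cdkn2b, the cyclin-dependent kinase inhibitor p15 that TGF-β induces in epithelial cells, was at 29.6, 16.6 and 15.8 CPM in floxed and at 5.72, 9.57 and 9.17 CPM in knockout libraries, a fall of 1.34 ± 0.23 (adjusted p = 0.000486). Ccnd3, cyclin D3, was the only called rise of that list (1.03 ± 0.28). DNA replication genes were higher in 3 and lower in 1 of 18 cases and mitosis genes higher in 1 of 17, near the shares of all genes. Among 17 macrophage identity factors, 3 were higher (Klf2, Cebpa and Mertk) and 3 lower (Nr1h3, Runx1 and Maf). Klf2, a factor known for quieting inflammatory genes, was at 1.40, 1.71 and 4.04 CPM against 5.72, 9.96 and 10.5 CPM (1.89 ± 0.39, adjusted p = 0.00192). Against floxed library 3 alone no growth factor, G1 control or identity gene was called.

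The remaining lists had few called members. Of 23 interferon-induced genes 1 was higher, of 18 Toll-like receptors and adaptors 2 were higher and 2 lower, and of 17 unfolded protein and stress response genes 2 were lower. Of 12 heat shock chaperones 1 was higher, of 14 lipid efflux and storage genes 1 was higher and 1 lower, and of 16 complement genes 1 was higher and 3 lower. Of 15 alternative activation genes 3 were lower (Arg1, Ccl22 and Il4ra), of 15 chemokine and migration receptors 2 were lower (S1pr1 and C5ar1), and of 7 nuclear long noncoding RNAs none was called. Sterol synthesis had 18 of 19 members on the positive side with a median of 0.55, but only Hmgcs1 passed the test (1.00 ± 0.22, adjusted p = 0.00279); without floxed library 3, 14 passed.

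The same genotypes were also compared after 4 hours with 10 ng/ml TGF-β1. That pair of groups gave 2141 higher (15%) and 1876 lower genes (13.2%). Of the genes higher without TGF-β1, 927 were also higher with it, 77.6% of the untreated and 43.3% of the treated calls; for lower genes it was 742, 55.5% and 39.6%, and 1 gene was called in opposite directions. The libraries of the 2 treatments share numbers and departures of single libraries, so the treated pair is not an independent source. Lysosomal genes were higher in 16 of 22 cases with TGF-β1, and ribosomal protein genes in 32 of 32. Mitochondrially encoded genes were higher in none and lower in 1 of 13 (median -0.12). TGF-β targets were higher in 2 and lower in 5 of 26 cases, and glycolysis and hypoxia genes higher in 2 and lower in 3 of 20.

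The difference between the treated and untreated comparisons was itself tested. At an adjusted p under 0.05, 3 genes (0.021% of those tested) differed in edgeR, all toward higher values with TGF-β1, and 917 had an unadjusted p under 0.05; DESeq2 called 9 genes in the same test. Id3 was one of the 3, with a difference of 2.99 ± 0.48 (adjusted p = 0.0377): it was lower in the knockout libraries without TGF-β1, as described above, and higher with it, at 25.7 ± 1.3 against 11.2 ± 2.5 CPM (SD, n = 3 each). The other genes, Gc and Alb, encode plasma proteins of the liver.

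**Figure D5:**
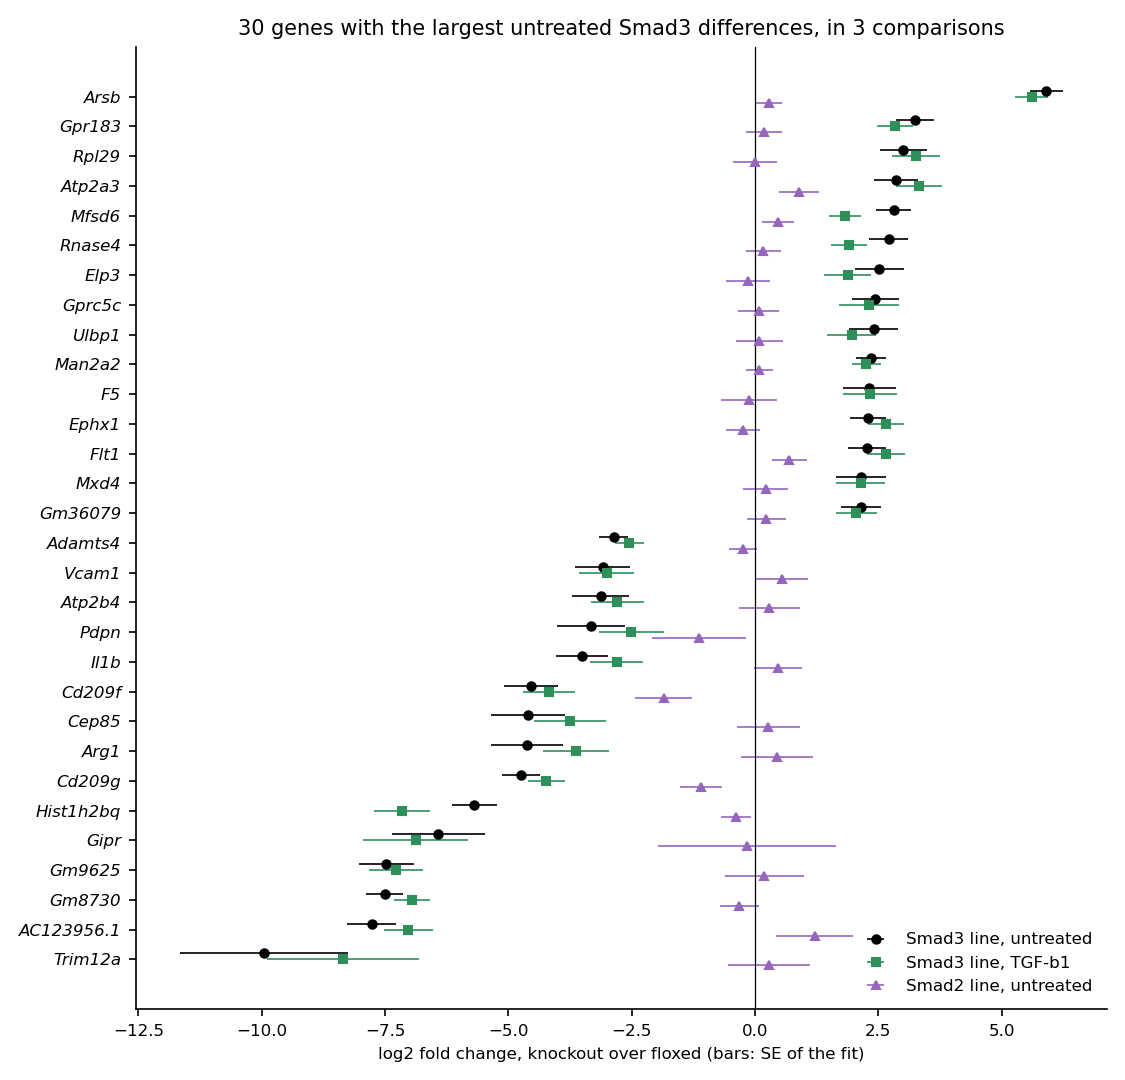
Log2 fold change of knockout over floxed for the 30 leading genes in the untreated Smad3 line (black), the Smad3 line with TGF-β1 (green) and the untreated Smad2 line (purple), with bars of 1 standard error of the fit. Values with and without TGF-β1 lie on the same side of 0 for Arsb (5.91 and 5.61), and the Smad2 line lies near 0 (0.28).

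The Smad2 line offers the same kind of comparison with Smad2 targeted in place of Smad3: floxed Smad2 mice with and without LyzM-Cre. The Smad3 transcript differed by -1.21 in the Smad3 line and by -0.80 between the lines, so its level was not equal within the Smad2 line. Untreated, the Smad2 line gave 5 higher (0.0351%) and 5 lower genes (0.0351%), of which 1 and 2 were among the calls of the Smad3 line. The difference between the lines was tested in the same fit, and 703 genes differed (4.93% of those tested), among them 23 of the 30 leading genes. The 30 were chosen for a large untreated difference in the Smad3 line, and that difference enters this test. Their high count was thus largely set by the choice and is no separate evidence. Arsb differed by 5.63 on the log2 scale (adjusted p = 4.07e-08) and Adamts4 by -2.62 (adjusted p = 0.000741). Il1b differed by -3.97 (adjusted p = 0.00299), Cxcl2 had an adjusted p of 0.000785, and Nlrp3 one of 0.00173. Lamp1 (adjusted p = 0.024), Hif1a (0.015), Pdgfb (0.0401) and Id3 (0.0106) also differed between the lines, whereas Ctsd (0.0582), Vegfa (0.0522), Egln3 (0.197), Timd4 (0.102) and Spp1 (0.374) did not pass. Untreated Adamts4 averaged 34.2 CPM in floxed Smad2, 448 CPM in floxed Smad3 and 61.5 CPM in Smad3 knockout libraries. Il1b averaged 15.4, 114 and 10.0 CPM in the same order. For both genes the floxed Smad2 mean was nearer the Smad3 knockout than the floxed Smad3 mean. The same held for most of the 30 leading genes, among them Arg1 (2.27, 55.7 and 2.24 CPM) and Vcam1 (9.71, 95.5 and 11.3 CPM). Among the rises it held for Ulbp1 (71.1, 17.3 and 92.5 CPM) and Elp3 (5.41, 0.972 and 5.64 CPM). For such genes the floxed Smad3 group was the one set apart. On the CPM scale it did not hold for Arsb (4.41, 1.03 and 61.4 CPM), Gpr183, Atp2a3, Mfsd6, Rnase4 and F5. Nor did it hold for Flt1, Gm36079, Trim12a and Hist1h2bq. The floxed groups of the lines were not tested against each other. Genotype at the targeted locus is not the sole difference between the lines.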

How the data were processed

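RNA abundance was measured by RNA-seq in 24 libraries, of which 6 belong to the comparison described. The authors deposited raw read counts and FPKM values for 54532 Ensembl genes in one table. The submitters' processing notes list mm10, GRCm38.p6, Cufflinks 2.1.1, TopHat2 2.0.9 and HTSeq 0.6.1. What each tool did, and whether counting used strand, is not given in the sources used here, so reads of overlapping genes on opposite strands, and of close copies, cannot be told apart. The labels' protocols speak of a smaller number of cDNA libraries than the samples deposited, and whether RNA was pooled is not stated. The deposited FPKM values were used only to look at Smad3 per length (304 ± 59.6 in floxed and 128 ± 8.41 in knockout libraries, SD, n = 3 each).

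Library depth was 16.9 to 24.9 M counted reads (M, 1e6) over all 24 libraries. Genes were kept by filterByExpr of edgeR 4.0.16 (R 4.3.3), which left 14261, while 26189 had no read. The counts were scaled by TMM, fitted in 1 model of 8 group means over all 24 libraries and tested by quasi-likelihood in edgeR; Benjamini-Hochberg adjustment ran over all 14261 genes of a comparison, with calls at an adjusted p under 0.05. Variation between libraries (median biological coefficient) was 21.2%; degrees of freedom were 16 residual and 6.07 prior. The text says rose, fell, higher and lower of called genes. The fit was tested on simulated data.

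Genes named are the 15 largest called rises and falls with at least 5 CPM in the higher group, separate groups and a call in every fit that left out 1 library, up to 4 called members per list by size of change, Smad3, Smad2 and genes that part single libraries. Other genes named were chosen after their values were seen. The gene lists (675 symbols in 46 lists, 9 of them cell type markers) and the comparison itself were chosen with earlier results of these data known. Alternatives were DESeq2 1.42.0, its size factors, other filters, the 6 libraries alone, left-out libraries and a block of library numbers; limma 3.58.1 (voom) with a random block was chosen after seeing the data. Same-numbered floxed and knockout libraries were not paired by the labels. Sequence copies were aligned with BLAST+ 2.17.0+. Promoters are from RefSeq, matched by symbol. Sequence reads were not analysed here.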

Additional observations from a re-analysis of the deposited data

Results flagged for a closer look

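The knockout difference changed with TGF-β1 for 3 genes in the test of that change. Id3 differed by 2.99 on the log2 scale, Gc by 3.00 and Alb by 2.19, each more positive with TGF-β1 than without it. Alb was at 14.1 ± 4.78 CPM in floxed and 20.0 ± 5.68 CPM in knockout libraries without TGF-β1, and at 12.1 ± 6.07 and 78.3 ± 13.6 CPM with it (SD, n = 3 each). Under TGF-β1, Alb and Gc were also higher in knockout libraries of the Smad2 line, by 1.26 and 1.60 (adjusted p = 0.0394 and 0.0442, edgeR). Id3 was not called there (0.30). Other liver transcripts, such as Ahsg (3.91) and Fga (4.13), were higher in treated Smad3 knockout libraries, though their change with TGF-β1 was not called.

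The untreated knockout difference of the Smad3 line differed from that of the Smad2 line for Smad3 itself, by -0.80, and for 23 of the 30 leading genes. The 30 were chosen by the Smad3-line difference that enters this test, so their count is no separate evidence. The genes more positive in the Smad3 line were Arsb by 5.63, Gpr183 by 3.06, Rpl29 by 3.01, Elp3 by 2.66, Rnase4 by 2.54, Ephx1 by 2.53, Gprc5c by 2.36, Mfsd6 by 2.34, Ulbp1 by 2.32 and Man2a2 by 2.26. The more negative ones were Trim12a by -10.24, AC123956.1 by -8.98, Gm9625 by -7.66, Gm8730 by -7.19, Hist1h2bq by -5.30, Arg1 by -5.06, Cep85 by -4.88, Il1b by -3.97, Cd209g by -3.66, Vcam1 by -3.63, Atp2b4 by -3.42, Cd209f by -2.68 and Adamts4 by -2.62. For Trim12a the value rests on floxed libraries 1 and 2 of the Smad3 line, and for Cep85 on floxed libraries 1 and 3.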

How the results depend on the processing

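Smad3 stayed lower and called in every alternative, with log2 differences from -1.39 to -0.996. Results are given as genes higher, genes lower, genes whose difference changed with TGF-β1 and genes whose difference differed between the lines: 1194, 1337, 3 and 703. With library number within line as a replicate block they were 1197, 1291, 4 and 827. Same-numbered floxed and knockout libraries had correlations of -0.14, -0.34 and 0.14, so the numbers did not pair them. DESeq2 gave 1505, 1560, 9 and 1208, its size factors 1 in the third test, and no filter 161 in the third and 1240 in the fourth. The third count was 17 in limma with a random replicate block and 6 with genotype and number as a replicate block, both chosen after seeing the data. Only the groups compared gave 108, 148, 0 and 127. Leaving out 1 library, or floxed library 3 with knockout library 1, gave 545 to 2193, 733 to 2015, 0 to 8 and 244 to 2806: the lowest came without floxed library 2 or knockout library 3, and the highest without floxed library 3 and knockout library 1. Without floxed libraries 1 and 2 the counts were 102, 222, 4 and 43. An adjusted p under 0.01 left 528, 650, 0 and 161, and a 2-fold minimum 532, 504, 3 and 482. The share of higher among called genes was 47.2% in the fit reported and 31.5% without floxed libraries 1 and 2. The cause of these shifts was not tested, except that fewer libraries enter the smaller fits. Of the called genes named by the rule, Trim30b (1.30), Trim5 (0.12) and Slc40a1 (0.12) changed sign with floxed library 3 as the sole control, none of them called, and Nlrp1a lost its difference without floxed library 3 and knockout library 1 (0). Genes with few reads, such as Csf3, limit the precision of a fold.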

Other observations

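Transcript classes differed in how they split. Of 11780 tested protein-coding genes, 1136 were higher and 1167 lower, with a median log2 difference of 0.00. Of 488 antisense genes, 3 were higher and 45 lower (median -0.35), of 451 long intergenic noncoding genes 6 and 44 (median -0.43), and of 220 processed transcripts 4 and 27 (median -0.44). With no strand setting given, reads of antisense genes and of their partners cannot be told apart.

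Segments of the T cell receptor alpha chain were higher in 6 of 9 tested cases, chosen after their values were seen. Trav13-4-dv7 was at 0.998, 3.38 and 9.02 CPM in floxed libraries 1, 2 and 3 and at 13.7, 13.1 and 12.4 CPM in knockout libraries (log2 difference 1.56 ± 0.53, adjusted p = 0.0433, edgeR). Trav14n-3 was at 0.200, 0.135 and 0.235 CPM against 2.21, 0.740 and 0.936 CPM (2.71 ± 0.65, adjusted p = 0.00625). Cd3e had no read in any of the 6 libraries, and Cd3d reached 0.0450 CPM at most. The sequences of the segments were not aligned to each other, so how far reads of single members can be told apart was not tested.

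Plasma proteins made by the liver were also present at low levels. Serpina1e had no read in the floxed libraries and 42 in the knockout libraries, at least 16.4-fold higher with 3 reads over the floxed group as the floor. In the Smad2 line it was at 0 CPM in floxed and 1.07 ± 0.456 CPM in knockout libraries. Mup3, a major urinary protein, was at 0.120 ± 0.101 CPM in floxed and at 1.42 ± 0.495 CPM in knockout libraries (SD, n = 3 each; log2 difference 3.53 ± 0.68, adjusted p = 0.00118, edgeR), and at 0.102 ± 0.0995 and 1.23 ± 0.198 CPM in the floxed and knockout libraries of the Smad2 line. Mup20 was at 0 and 0.236 ± 0.229 CPM there.

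Same-numbered libraries without and with TGF-β1 deviated together within the floxed group, with correlations of 0.45, 0.34 and 0.33 across genes, and within the knockout group of 0.41, 0.04 and 0.29; genes are not independent replicates.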
